A study of Rattus norvegicus and synthetic construct with 4 samples.

Results

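The elements described here are short stretches of human DNA at the start sites of genes that encode proteins of the small ribosomal subunit. An element belongs to the set by its position: its midpoint (hg19) had to lie within 2 kb of one of 31 listed start sites, whose positions are given to the nearest lower kb. The rule found 37 of the 3378 elements in the count table, at 27 of the 31 start sites. Of those 27 sites, 19 had 1 counted element, 6 had 2 and 2 had 3, so neighbours in a window are not independent of each other. Gene names were taken from a list of 27 names kept with these positions, which leaves 4 of the start sites unnamed. Elements at 3 of these were counted, and they are called here by chromosome and position. The windows of RPS10, RPS2, RPS21 and the fourth unnamed site, on chromosome 19, had no element among those paired with barcodes.

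The series measured reporter output by STARR-seq, an assay in which a tested sequence sits inside a reporter transcript on a plasmid, so that its regulatory strength is read from its own RNA. Its 7188 designed elements of 198 bp came from human pancreatic islets, where CAGE had mapped the 5′ ends of transcripts. The host cells were INS1 832/13, a rat insulinoma line that stands in for beta cells, the makers of insulin, so human sequences were read by rat factors in a single line. One library of input plasmid DNA was compared with 3 RNA libraries, each from cells electroporated with 10 ug of the plasmid pool and harvested after 24 h. No library received another treatment, and the DNA library is the only control.

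The small ribosomal subunit binds messenger RNA and pairs its codons with transfer RNA. Its body and platform carry the messenger channel, and its head and beak move during decoding and translocation. Ribosomal protein genes are among the most highly transcribed genes of most cells. Their promoters are compact, usually lack a strong TATA box, and start transcription within a pyrimidine-rich tract at which the messenger of a ribosomal protein begins. Some start sites face a second gene head to head, as FAU faces MRPL49 and RPS18 faces VPS52. The element names carry no strand, and an hg19 annotation was not used here, so promoter, exon and intron positions are not stated and an element may cover either start site.

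The DNA sequences of the elements were not analysed here. What marked each plasmid in sequencing was a random barcode of 16 bases, and these barcodes are shown for 3 elements whose counts are given plasmid by plasmid further on, the 2 highest of the named genes and the overlapping neighbour of 1 of them. At the RPS15 start site the element was read through 3 plasmids, whose barcodes were:
RPS15 barcode a: gggattcccactgctg
RPS15 barcode b: gtaacaaagatgaaat
RPS15 barcode c: tttatcgaggactaag

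At the RPS28 start site 2 elements share 47 bp. The one with the lower coordinates had 3 plasmids and the other had 6:
RPS28 element 1 barcode a: acgactggttgcatga
RPS28 element 1 barcode b: cggtagagttgtcacc
RPS28 element 1 barcode c: tctcgtatcgacgtag
RPS28 element 2 barcode a: ctaaatgtattcgaca
RPS28 element 2 barcode b: gaaaccgttcatctag
RPS28 element 2 barcode c: gtttatcctatctcta
RPS28 element 2 barcode d: ttaaccataggcgcag
RPS28 element 2 barcode e: ttggttgtggttgatt
RPS28 element 2 barcode f: tttgcaggttgtatga

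Total counts were 1079728 for plasmid DNA and between 197554 and 218571 for the RNA libraries. The 37 elements were carried by 365 barcodes, which had 11071 plasmid DNA counts and 5100, 4653 and 5256 RNA counts in replicates 1, 2 and 3. An element had a median of 6 barcodes (range 2 to 50), the same median as over all elements. Counted barcodes all had 10 or more DNA counts and appeared in at least 1 RNA library, so plasmids that made no RNA are not among them. Of the barcodes paired with elements in these windows, 47% were in the count table, against 40.8% over the whole series. The activity of an element is given as RNA/DNA, its normalized RNA count over its normalized DNA count, where 1 is the centre of the whole library and not the level of an inactive control. The SD given with a ratio covers the 3 RNA libraries and leaves out the error of the single DNA library. PCR counts without a stated molecular identifier are not independent molecules. The labels call the replicates biological, and their p-values measure the spread between electroporations of 1 plasmid pool.

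Many of the ribosomal elements gave RNA clearly above the centre. Above the centre were 12 of 37 elements (32.4%) at an adjusted p under 0.05 (edgeR's quasi-likelihood test, Benjamini-Hochberg over all elements), against 8.88% of all elements. These 12 lay at 11 start sites: RPS15, RPS28, RPSA, RPS3A, RPS18, RPS24, RPS7, FAU with 2 elements, and the 3 unnamed sites. Their fitted ratios ran from 3.32-fold to 21.9-fold with a median of 6.8-fold. At least 4-fold were 11 of them (6.04% of all elements) and at least 8-fold were 5 (1.92% of all elements). In edgeR's test 0 were below the centre, against 0% of all elements. At an unadjusted p under 0.05, 12 were above (13.5% of all elements) and 1 was below (0.77%). DESeq2 also called 12 above (12.4% of all elements) and 0 below (0%), with 18 of the 37 left without an adjusted p. With library totals in place of TMM factors, 8 were above 0 (5% of all elements) and 1 below (1.48%). The median log2 of all elements was then -0.77.

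Because elements with more barcodes are called more often, the count was also set beside that of elements with like numbers of barcodes. With 2 to 4 barcodes, 2 of 14 ribosomal elements were above, against 3.38% of all elements in that class. With 5 to 9 barcodes, 5 of 14 were above, against 7.22%. With 10 to 19 barcodes, 3 of 4 were above, against 12.5%, and with 20 or more, 2 of 5, against 22%. In every class the share among the ribosomal elements was the higher one, on small numbers in the last 2. The largest drop in the count came from the low counts of single barcodes. With RNA counts of 1 to 4 per barcode taken as 0, 5 elements were above, against 3.4% of all elements. Without the barcode with the most RNA in each element, 10 were above (8.44% of all elements). Without RNA replicate 1, 2 or 3 they were 10, 9 and 11, against 8.56, 5.71 and 6.45% of all elements. No test of the list was made, since its members were proposed with results of these data known.

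The median log2 RNA/DNA of the 37 elements was 0.95 (quartiles -0.60 and 2.25), and that of all 3378 elements was -0.03 (quartiles -0.82 and 0.92). The upper quartile stood further from that of all elements than the lower one did. All 3 RNA libraries were above the centre for 18 elements (48.6%, against 25.8% of all elements), and all 3 were below it for 9 (24.3%, against 29.4%). The other 10 had libraries on both sides. The median differed between the libraries, at 0.25, 0.93 and 1.31 in replicates 1, 2 and 3, where over all elements it was between -0.15 and -0.11. Without the barcode with the most RNA in each element, the ribosomal median was 0.19 and that of all elements -0.18.

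Summed over the 37 elements, RNA/DNA was 3.95, 3.77 and 3.95 times the centre in replicates 1, 2 and 3, a mean of 3.89 ± 0.106 (SD, n = 3). With library totals in place of TMM factors, which set the centre for every ratio given here, it was 2.33 ± 0.0314 (SD, n = 3). The elements held 1.03% of the plasmid DNA counts and 2.39% ± 0.0322 (SD, n = 3) of the RNA counts. All 3 RNA libraries were thus above the DNA library, and an exact permutation test of 3 libraries against 1 cannot give a p under 0.25. The 12 elements above the centre supplied 87.3, 82.4 and 86.2% of this RNA from 39.7% of the DNA. A single element, the unnamed one on chromosome 1, supplied 39.1, 38.3 and 38.3% of the RNA from 14.1% of the DNA. Without it the summed ratio was 2.78 ± 0.0691 (SD, n = 3). The other 25 elements together stood at 0.944 ± 0.14 (SD, n = 3), near the centre. This follows in part from the call, which took out the high elements, and the sum weighs elements by their DNA counts. Of the 25, 6 were above the centre in all 3 libraries and 9 were below it in all 3.

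Head and beak proteins had 15 elements, of which 3 were above the centre, against 8.88% of all elements. No contrast between groups of proteins was tested. The 3 included the highest ratios of the named genes. RPS15 encodes a protein of the head near the decoding site. Its element, on chromosome 19 from 1438290 to 1438487, had 58 DNA counts and 211, 67 and 172 RNA counts. These counts gave 31.2, 10.4 and 24.7 times the centre, a mean of 22.1 ± 10.7 (SD, n = 3). All 3 libraries were far above the centre, and its highest library was 3.01 times its lowest, replicate 2. Its log2 ratio was 4.46 ± 0.66 (SE; edgeR adjusted p = 1.19e-07).

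The 3 RPS15 plasmids did not contribute alike. Barcode a had 15 DNA counts and 59, 48 and 74 RNA counts, high in each library. Barcode b, with 12 DNA counts, gave 114, 16 and 75, and barcode c, with 31 DNA counts, gave 38, 3 and 23. Replicate 2 had the lowest count in all 3 plasmids, with the smallest drop in barcode a. The barcode with the most RNA supplied 45.6% of the element's RNA counts.

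RPS28 encodes a small head protein close to the messenger exit. Its element 2, on chromosome 19 from 8386311 to 8386508, had 198 DNA counts and 442, 400 and 494 RNA counts. The ratios were 19.1, 18.1 and 20.8, with a mean of 19.3 ± 1.35 (SD, n = 3) and a log2 ratio of 4.27 ± 0.38 (SE; edgeR adjusted p = 1.51e-15). All 6 of its barcodes were detected in all 3 libraries. Barcode e had the most RNA, with 58 DNA counts and 168, 76 and 209 RNA counts. Barcode d, from only 13 DNA counts, gave 54, 54 and 43. The lowest RNA count of any of the 6 plasmids in any library was 27, in barcode b in replicate 1. The output of this element was therefore not that of 1 plasmid.

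The neighbouring RPS28 element 1, from 8386160 to 8386357, was lower in each library. Its 147 DNA counts came with 31, 49 and 63 RNA counts, or 1.81, 2.99 and 3.57 times the centre. It did not pass the test (log2 1.48 ± 1.01, SE; edgeR adjusted p = 0.648). Element 2 exceeded element 1 by 3.38, 2.59 and 2.53 on the log2 scale in replicates 1, 2 and 3, with a mean of 2.83 ± 0.48 (SD, n = 3). The difference was larger than the spread between libraries, and 3 libraries cannot give an exact p under 0.05. Most of the DNA of element 1 was from barcode a, with 99 DNA counts and 10, 37 and 15 RNA counts. Barcode b had 24 DNA counts and 11, 12 and 44 RNA counts, and barcode c had 24 and 10, 0 and 4.

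RPS18 encodes a head protein that contacts the large subunit. The element on chromosome 6 from 33239759 to 33239956 had 174 DNA counts on 5 barcodes and 144, 141 and 120 RNA counts. It stood at 7.09, 7.26 and 5.74 times the centre, with little spread (6.7 ± 0.831, SD, n = 3). The test placed it above the centre (log2 2.74 ± 0.58, SE; edgeR adjusted p = 0.000221). With RNA counts of 1 to 4 taken as 0 the adjusted p was 0.0673.

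Other elements at start sites of head and beak proteins did not pass the test. RPS29, a zinc-binding head protein, had 3 counted elements. The second, on chromosome 14 from 50053454 to 50053651, had 39 barcodes, 1277 DNA counts and only 54, 43 and 61 RNA counts. Its ratios of 0.362, 0.302 and 0.398 were low in every library and close together (0.354 ± 0.0486, SD, n = 3). This was the 1 element below the centre at an unadjusted p under 0.05, and its log2 ratio of -1.50 ± 0.56 (SE) did not pass after adjustment (edgeR adjusted p = 0.0899). With library totals it passed as below 0 (log2 -2.24, edgeR adjusted p = 0.000956), as did 1.48% of all elements. The median of all elements was then -0.77, against -0.03 in the main setting. In limma-voom it passed at -1.49 (adjusted p = 0.00475, against 4.03% of all elements), with that median at -0.32. It passed in no other setting. DESeq2 gave an adjusted p of 0.0743. Its log2 ratio was -0.66 as a median over its barcodes (limma adjusted p = 0.284) and -1.12 without its top barcode (edgeR adjusted p = 0.516). Of 102 barcodes paired with it, 39 were in the count table, and 2, 1 and 3 of these had 5 or more RNA counts in the 3 libraries.

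The third RPS29 element, which shares 98 bp with the second, was as low, at 0.342 ± 0.249 (SD, n = 3) over 9 barcodes. Their log2 difference of -0.28 ± 1.18 (SD, n = 3) was within the spread between libraries. The first, from 50052998 to 50053195, lies 258 bp from the second and was at 1.45 ± 0.274 over 7 barcodes, higher in each library. The second was lower than it by 1.66, 2.44 and 1.99 on the log2 scale. A single barcode held 73.8% of the first element's RNA, and without the top barcode of each element the difference turned to 0.34 ± 1.94 (SD, n = 3).

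The RPS3 start site gave unequal libraries. RPS3 lies at the messenger entry and also acts in DNA repair. Element 1, from 75110474 to 75110671 on chromosome 11, stood at 0.485, 5.24 and 6.44 times the centre on only 2 barcodes. Element 2 was at 0.568 ± 0.26 (SD, n = 3) on 8. At the start site of RPS25, a head protein needed for initiation at some internal entry sites, both elements were high in replicate 3 alone. Their ratios were 0.439, 0.689 and 5.12 on 2 barcodes and 0.549, 0.115 and 3.1 on 3.

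RPS16 and RPS19 are head proteins with 1 counted element each, and RPS19 is the gene most often mutated in Diamond-Blackfan anaemia. The RPS16 element was at 1.94 ± 1.37 and the RPS19 element at 0.362 ± 0.183 (SD, n = 3 for each), on 3 and 4 barcodes. RPS20, another head protein, was at 0.622 ± 0.2 on 5 barcodes and below the centre in each library. RPS12, a beak protein, was at 0.846 ± 1.04 on 4 barcodes, above the centre in replicate 1 only.

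Body and platform proteins had 14 elements, of which 4 were above the centre, against 8.88% of all elements. RPSA, which also occurs at the cell surface as a laminin receptor, encodes a body protein next to the head. Its element, on chromosome 3 from 39448118 to 39448315, had 349 DNA counts and 413, 342 and 369 RNA counts. It reached 10.1, 8.78 and 8.8 times the centre (9.24 ± 0.777, SD, n = 3), and the 3 libraries barely differed. The log2 ratio was 3.21 ± 0.38 (SE; edgeR adjusted p = 8.46e-11). All 10 of its barcodes were detected in all 3 libraries, and 10 of 11 paired barcodes were in the count table.

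RPS3A encodes a platform protein. The element on chromosome 4 from 152020698 to 152020895 had 18 barcodes, 543 DNA counts and 384, 418 and 508 RNA counts. Its ratios were 6.06, 6.9 and 7.79 (6.92 ± 0.867, SD, n = 3), all well above the centre. The log2 ratio was 2.79 ± 0.34 (SE; edgeR adjusted p = 4.08e-10). No barcode held more than 15.2% of its RNA, and 15 of the 18 were detected in all 3 libraries.

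RPS24 and RPS7 are body proteins, and both had weaker support. The RPS24 element, on chromosome 10 from 79793524 to 79793721, had 106 DNA counts and 88, 95 and 43 RNA counts, or 7.11, 8.03 and 3.38 times the centre. It passed narrowly (log2 2.62 ± 0.84, SE; edgeR adjusted p = 0.0313), and 1 of its 6 barcodes held 78.8% of the RNA. Without that barcode its log2 ratio was 1.21 (adjusted p = 0.817). The RPS7 element, on chromosome 2 from 3622772 to 3622969, had 233 DNA counts on 7 barcodes and 159, 111 and 82 RNA counts. It stood at 5.85, 4.27 and 2.93 (4.35 ± 1.46, SD, n = 3; log2 2.12 ± 0.61, SE; edgeR adjusted p = 0.0108).

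Calls at these last 2 sites were lost when replicate 1 or replicate 2 was left out, while their ratios stayed above the centre. Without replicates 1 and 2 in turn, log2 ratios were 2.48 and 2.39 for RPS24 and 1.82 and 2.13 for RPS7. RPS24 was lost without replicate 1 (edgeR adjusted p = 0.0856) and without replicate 2 (0.321). RPS7 was lost without the same replicates (0.0957 and 0.174). With library totals the adjusted p was 0.226 for RPS24 and 0.202 for RPS7, and with RNA counts of 1 to 4 taken as 0 it was 0.596 and 0.387. Of the 12 elements, 8 were above the centre without each replicate in turn. The exceptions were RPS7, RPS24 and both FAU elements.

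RPS6, the body protein phosphorylated by S6 kinase, had 2 elements on chromosome 9, and neither passed. Element 1, from 19379476 to 19379673, had 26 barcodes, 884 DNA counts and 55, 81 and 51 RNA counts. Its ratios of 0.533, 0.821 and 0.48 were below the centre in each library (log2 -0.71 ± 0.59, SE; edgeR adjusted p = 0.773). Element 2, from 19380150 to 19380347, was above it in each library at 1.96 ± 0.954 (SD, n = 3) on 6 barcodes. Element 2 exceeded element 1 by 1.18, 1.88 and 1.79 on the log2 scale (1.62 ± 0.38, SD, n = 3), more than the spread between libraries. Without the top barcode of each element the difference was 0.68 ± 1.01.

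RPS27, a zinc-binding platform protein, had an element at the centre. On chromosome 1 from 153963188 to 153963385, it had 16 barcodes, 540 DNA counts and 70, 82 and 45 RNA counts. Ratios of 1.11, 1.36 and 0.694 fell on both sides of the centre (log2 0.08 ± 0.67, SE; edgeR adjusted p = 0.999).

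Most other body and platform elements rested on few plasmids. RPS14, lost in a deletion syndrome of the bone marrow, stood at 5.78, 4.93 and 3.33 times the centre, high in each library. With only 2 barcodes and 40 DNA counts it did not pass (log2 2.22 ± 1.78, SE; edgeR adjusted p = 0.751). RPS15A, a body protein, had 3 barcodes and ratios of 5.82, 1.01 and 2.83, also without passing (adjusted p = 0.871). Each element was also summarized by the median over its barcodes and tested with limma (13.9% of all elements above). RPS14 (adjusted p = 0.00375), RPS15A (0.0146) and RPS28 element 1 (0.00866) were then above the centre, on 2, 3 and 3 barcodes. RPS24 was not (log2 1.24, adjusted p = 0.174). This test takes 1 median per RNA library, all over the same DNA counts. Its p-values leave out the error of the DNA library and the spread between plasmids.

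Elements at RPS23, RPS13 and RPS9 were below the centre in each library without passing the test. RPS23 sits at the decoding centre, RPS13 bridges to the large subunit, and RPS9 lies in the body and bears on decoding accuracy. Their ratios were 0.387 ± 0.303 on 6 barcodes, 0.659 ± 0.291 on 6 and 0.418 ± 0.255 on 5 (SD, n = 3 for each). RPS26, at the messenger exit, had 2 elements at 1.07 ± 1.01 and 1.4 ± 0.971 on 4 barcodes each. Their libraries went opposite ways, since replicate 2 was the highest of element 1 (2.18) and the lowest of element 2 (0.592).

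FAU and RPS27A encode fusions in which a ubiquitin-like protein or ubiquitin precedes a ribosomal protein and is cut off, and 2 of their 5 elements were above the centre, against 8.88% of all elements. FAU was the only start site with 2 elements above the centre. FAU element 1, on chromosome 11 from 64889527 to 64889724, had 30 barcodes, 630 DNA counts and 220, 161 and 355 RNA counts. Its ratios of 2.99, 2.29 and 4.69 were highest in replicate 3 (3.32 ± 1.24, SD, n = 3). The log2 ratio was 1.73 ± 0.41 (SE; edgeR adjusted p = 0.00116), and without replicate 3 the adjusted p was 0.0923.

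FAU element 2, from 64889672 to 64889869, shares 53 bp with the first and had 9 barcodes, 179 DNA counts and 108, 114 and 96 RNA counts. It stood at 5.17, 5.71 and 4.47 (5.11 ± 0.622, SD, n = 3), close together in the 3 libraries. The log2 ratio was 2.35 ± 0.65 (SE; edgeR adjusted p = 0.00771), and without replicate 2 the adjusted p was 0.127. The log2 difference between the elements was 0.79, 1.32 and -0.07 in the 3 libraries (0.68 ± 0.70, SD, n = 3), no larger than its spread. Neither call held with library totals (adjusted p = 0.139 for element 1 and 0.154 for element 2) or with RNA counts of 1 to 4 taken as 0 (0.463 and 0.328).

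RPS27A had 3 elements on chromosome 2, of which only the second had many plasmids. Element 2, from 55459729 to 55459926, had 31 barcodes, 891 DNA counts and 154, 225 and 154 RNA counts. Its ratios of 1.48, 2.26 and 1.44 were modestly above the centre in each library (log2 0.79 ± 0.42, SE; edgeR adjusted p = 0.411). In limma-voom it passed (adjusted p = 0.0207), as did 15.1% of all elements. Element 3, which shares 82 bp with it, was at 0.534 ± 0.638 on 6 barcodes and element 1 at 0.749 ± 1.01 on 4 (SD, n = 3). Element 3 was lower than element 2 in each library, by 2.48, 0.82 and 3.62 on the log2 scale.

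The 3 elements at unnamed start sites all passed the test, against 8.88% of all elements. The one on chromosome 1 from 45241140 to 45241337 was the most deeply measured of the 37, with 50 barcodes, 1556 DNA counts and 1995, 1784 and 2015 RNA counts. It reached 11, 10.3 and 10.8 times the centre (10.7 ± 0.366, SD, n = 3), and its highest library was 1.07 times its lowest. The log2 ratio was 3.42 ± 0.22 (SE; edgeR adjusted p = 8.65e-23). Its output was spread over many plasmids: 46 of the 50 barcodes were detected in all 3 libraries, and the top barcode held 5.47% of the RNA.

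On chromosome 19, the element from 49999579 to 49999776 had 61 DNA counts on 3 barcodes and 87, 78 and 89 RNA counts. Its ratios of 12.2, 11.5 and 12.2 differed little (log2 3.57 ± 0.84, SE; edgeR adjusted p = 0.00102). Its top barcode held 52.8% of the RNA and 37.7% of the DNA. Without that barcode the log2 ratio was little changed at 3.55, and the edgeR adjusted p was 0.051. The element from 58898551 to 58898748 had 307 DNA counts on 10 barcodes and 201, 122 and 190 RNA counts. It was at 5.61, 3.56 and 5.15 (4.77 ± 1.08, SD, n = 3; log2 2.25 ± 0.50, SE; edgeR adjusted p = 0.000419). With RNA counts of 1 to 4 taken as 0, neither chromosome 19 element passed (adjusted p = 0.139 and 0.119). Without the unnamed sites, 9 of 34 elements were above the centre, or 26.5%, against 8.88% of all elements.

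The elements above the centre differed from the rest in how many of their plasmids were active, which follows in part from the call itself and is given as a description. In replicates 1, 2 and 3, 70.1, 66.2 and 67.5% of their barcodes had 5 or more RNA counts. Of the barcodes of the other 25 elements, 15.9, 18.3 and 14.4% did, and of all barcodes in the series between 22.1 and 23.4%. The share of paired barcodes that reached the count table was 58.8% for the 12 and 42.8% for the 25. Counted barcodes all appeared in at least 1 RNA library, so this share depends in part on RNA output itself. The 25 had fewer barcodes (median 5, against 8) and more often leaned on 1 plasmid, whose share of the RNA had a median of 56.9%, against 27.6%. Among them, 12 had under 5 barcodes, and SEs of their log2 ratios ran from 0.42 to 2.01 over the 25, so activities of a few-fold were not detectable in many of them.

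Neighbours in a window were compared in 10 pairs, 4 of which share bases. In 5 pairs 1 member was higher in every library: both at RPS27A, those at RPS6 and RPS28, and the first 2 elements at RPS29. The higher member had the higher coordinates in 3 of the 5. A like count over neighbours in the whole series was not made, and the ratios of an element share its DNA count. Among the 8 start sites with several counted elements, 1 had a single element above the centre (RPS28), 1 had 2 (FAU) and 6 had none. That made 3 of the 18 elements at these sites, against 8.88% of all elements. Of the 19 sites with 1 counted element, 9 had it above the centre, against the same 8.88%. No contrast between the kinds of site was tested.

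Agreement between libraries was higher for these elements than over the series. Pearson's r of log2 RNA/DNA across the 37 elements was 0.765, 0.787 and 0.704 for the 3 pairs of libraries, against 0.522 to 0.53 across all 3378. These are descriptions across elements, and the ratios of a pair share the same DNA counts. The 37 elements also had wider quartiles of log2 RNA/DNA, given above. Between 37.3 and 39.2% of their barcodes had 5 or more RNA counts per library, against 22.1 to 23.4% over the series. What these differences add to the agreement was not tested. Between libraries the log2 ratios of an element had a median SD of 0.671, against 0.81 over all elements.

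Distances were taken from the listed positions, which are given to the nearest lower kb, so each can be off by up to 1 kb. The 2 members farthest from their listed positions were the RPS9 element at 1048 bp (0.418 ± 0.255) and RPS3 element 2 at 1751 bp (0.568 ± 0.26). The nearest elements outside the limit were 3737 bp from the RPS24 site (1.65 ± 0.924) and 4213 bp from the RPS27 site (1.33 ± 1.42; SD, n = 3). Within 1 kb of the listed positions, 12 of 35 elements were above the centre, against 8.88% of all elements. Another 7 elements in the windows were paired with 1 to 8 barcodes but are not in the count table. They lie at RPS23, RPS12, RPS13, RPS9, the unnamed chromosome 1 site and, with 2 elements, RPS29.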

How the data were processed

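Raw counts for every barcode in 1 plasmid DNA and 3 RNA libraries were deposited by the authors, with a pairing table of other content, the element of each barcode. Coordinates are hg19, per the submitters' processing notes. For matching and filter thresholds, the sources used here give none. Starts are printed counted from 1.

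Counts were summed per element and tested over all 3378 elements as RNA against DNA with edgeR 4.0.16 (R 4.3.3), using TMM factors (1.47 for DNA, 0.87 to 0.895 for RNA), the quasi-likelihood test and Benjamini-Hochberg adjusted p under 0.05. SEs are the size of log2 over the square root of F. Differences between neighbours used a pseudocount of 0.5 counts. The test was checked on simulated counts. Alternatives used DESeq2 1.42.0, limma 3.58.1 and other filters, scalings and weights of barcodes.

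Full values were given for elements called or with at least 10 barcodes, and shorter ones for the rest. Members and lists were chosen with earlier results of these data known. The planned motif search was not run, since the promoter table at hand is of rat genes.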

Additional observations from a re-analysis of the deposited data

How the results depend on the processing

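No paired analysis was possible because the DNA group has 1 library and shares fewer than 2 replicate numbers with the RNA group. The count of 12 elements above the centre ran from 8 to 14 under 11 of the alternatives of normalization, test, filter, barcode weight and replicates. Among those of the 11 that kept all elements, 5% (library totals) to 15.1% (limma-voom) of all elements were above. The count was 13 in limma-voom and 14 with the median over barcodes (13.9% of all elements). The filters left fewer elements, with 10 of 23 above at 5 or more barcodes and 12 of 35 at 50 or more DNA counts. Over the series 268 and 295 elements were then above. With low RNA counts (1 to 4 per barcode) taken as 0 the count was 5, against 3.4% of all elements. RPSA, RPS3A, RPS15, RPS28 element 2 and the unnamed chromosome 1 element were above the centre in every setting that kept all elements. Those lost elsewhere were RPS7, RPS18, RPS24, both FAU elements and the other 2 unnamed ones. Leaving out 1 RNA replicate gave 9 to 11 above (5.71 to 8.56% of all elements) and 0 below. It also gave medians of 0.86 to 0.90, summed ratios of 3.78 to 3.95, and 6 to 8 of 10 neighbour pairs that kept 1 direction. That last count needs only 2 libraries to point one way, so it is not on a footing with the 5 of 10 over 3 libraries. One element, RPS29 element 2, passed as below 0 with library totals and in limma-voom (a count of 1 each), and in no other setting. Of all elements, 1.48% and 4.03% did so. Both settings also moved the median of all elements, by -0.73 and -0.29. The median of 0.95 was 0.22 with library totals, 0.16 with low RNA counts taken as 0 and 0.19 without top barcodes. The first 2 settings moved the median of all elements by -0.73 and -0.82, and the ribosomal median stayed 0.98 and 1.01 above it. Without top barcodes it was 0.37 above, against 0.98 in the main setting, and the cause was not tested. The summed ratio of 3.89 was 2.33 with library totals, 4.12 with DESeq2 size factors, 2.75 with low RNA counts taken as 0, 4.77 without top barcodes, 4.05 within 1 kb, 4.19 with 1 element per start site and 2.65 without the unnamed sites. The last 2 were chosen after seeing the data. The difference of RPS29 element 2 from element 1 reversed to 0.34 without top barcodes. SEs of log2 ratios reached 2.01 among the 25 elements that did not pass and 0.84 among the 12 that did.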
